A study of Mus musculus with 4 samples.

Results

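Amphiregulin (Areg) was followed through single group 2 innate lymphoid cells (ILC2) of mouse pancreas, as 1 of 11352 gene rows of a read count table. The study index-sorted single ILC2 into 4 plates of 384 wells and sequenced them by SORT-seq, which follows CEL-seq2 and counts reads near the 3′ end of each polyadenylated transcript. The labels give the genotype of every plate as C57BL6J and the tissue as pancreas. The cells carried KIKR, a photoconvertible protein that is green until violet light turns it red. On plate 1 the sort record marks 151 wells as green (non-photoconverted, KIKR-Green), 12 as red (photoconverted, KIKR-Red) and 221 as empty. The series' title speaks of fasting, but no label gives a feeding state, an age, an animal or the time since light exposure, so cells of either colour may differ in these. Areg was chosen by its name alone.

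Row names could be used on plate 1 only. There the 78 rows named as spike-in RNAs held 43.2% of 52614294 reads and the rows named as mitochondrial 5.63%, whereas the latter held 0.0110 to 0.0531% of reads on plates 2 to 4. Of the 163 sorted wells of plate 1, 106 passed a filter that asked for 500 or more genes with any read and for a mitochondrial share of reads under 25%: 98 green and 8 red cells. They form 1 sample, cells of it are not replicates, and no p-value was computed. Gene reads per cell ranged from 17825 to 1274117 in green and from 56539 to 1677643 in red cells. Of 14 ILC2-like markers, 94 of the 106 cells held 3 or more, among them all 8 red cells. Markers of T cells were found 3 or more together in 2 cells, and 0 cells held 3 markers of NK cells or ILC1, ILC3, myeloid cells or acinar cells, which allows up to 2.83% of cells. These 4 lists had 3 or 4 rows each, so this bound covers 3 markers found together and not other cell types as such. Prf1, 1 of 3 NK rows, Il23r of the ILC3 list and all 4 acinar rows were detected in no cell. Single markers did occur, with Ltb of the ILC3 list in 47.2% and Cst3 of the myeloid list in 33.0% of cells. The lists of B cells and mast cells had 1 row each, too few for this count, and Kit, a mast cell gene also found on some innate lymphoid cells, was detected in 21.7% of cells.

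Amphiregulin is a ligand of the epidermal growth factor (EGF) receptor. It is made as a membrane-anchored precursor, and metalloproteases, chiefly ADAM17, cut it free with the help of iRhom proteins. ILC2 are known to make it after stimulation by interleukin-33 and other alarmins, and ILC2-derived amphiregulin is known for its part in repair of epithelial barriers. In many cell types the gene is known to respond quickly to cyclic AMP and growth factor signals, and short-lived messenger RNAs of this kind often carry AU-rich elements in the 3′ untranslated region.

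Areg (ENSMUSG00000029378.5) lies on the forward strand of chromosome 5, from 91139599 to 91148432 in mm10 (GENCODE M21), with 6 exons. The 120 bases before its transcript start are shown because they hold a full cyclic AMP response element (CRE, letters TGACGTCA) and a TATA box (TATAAA), both in capitals. They are from RefSeq on GRCm38.p6, forward strand, at chr5:91139479-91139598.
Areg upstream: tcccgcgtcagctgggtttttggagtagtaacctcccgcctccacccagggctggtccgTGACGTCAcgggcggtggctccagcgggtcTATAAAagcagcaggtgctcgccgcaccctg
The CRE starts 61 bases and the TATA box 31 bases before the transcript start. Both strands were searched over 300 bases, 250 before to 50 after each start. In this window 1.79% of 32851 mouse promoters hold the same 8 letters, 13.6% hold TATAAA and 7.81% hold the AP-1 letters TGANTCA, which the Areg window does not. Such a match describes letters and not binding.

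The 3′ untranslated region is also shown in part, since it holds repeated copies of the AU-rich pentamer ATTTA. The 30 bases lie in the last exon at chr5:91148369-91148398 on the forward strand of mm10 and start at base 193 of the untranslated region. Capitals mark the pentamers, of which the first pair share a base.
Areg 3′ UTR, AU-rich stretch: ataATTTATTTAatATTTAagtgttATTTA
All 4 pentamers of the region lie in this stretch, which makes 1.56 per 100 bases. Of 20693 genes with a 3′ untranslated region of at least 50 bases, 0.280% had pentamers as dense or denser, and the median was 0.127 per 100 bases.

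Areg was detected in most green cells, and in these at very different levels. With detection set at 16 reads, 65 of 98 green cells had Areg, 66.3% (exact 95% binomial interval 56.1 to 75.6%), against 4 of 221 empty wells, 1.81% (0.495 to 4.57%). The empty wells had a median of 92 genes, and the 4 with Areg held 22, 38, 48 and 98 reads of it. At 1 read, 89.8% of green cells and 14.9% of empty wells had Areg, so lower counts could not be told from background in single wells. At 64 reads, 56.1% of green cells and 0.452% of empty wells had it. All binomial intervals cover counting error over wells of 1 sample only. PCR copies of a molecule are counted as separate reads, so Poisson intervals of summed reads do not cover the counting error of molecules.

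**Figure D1:**
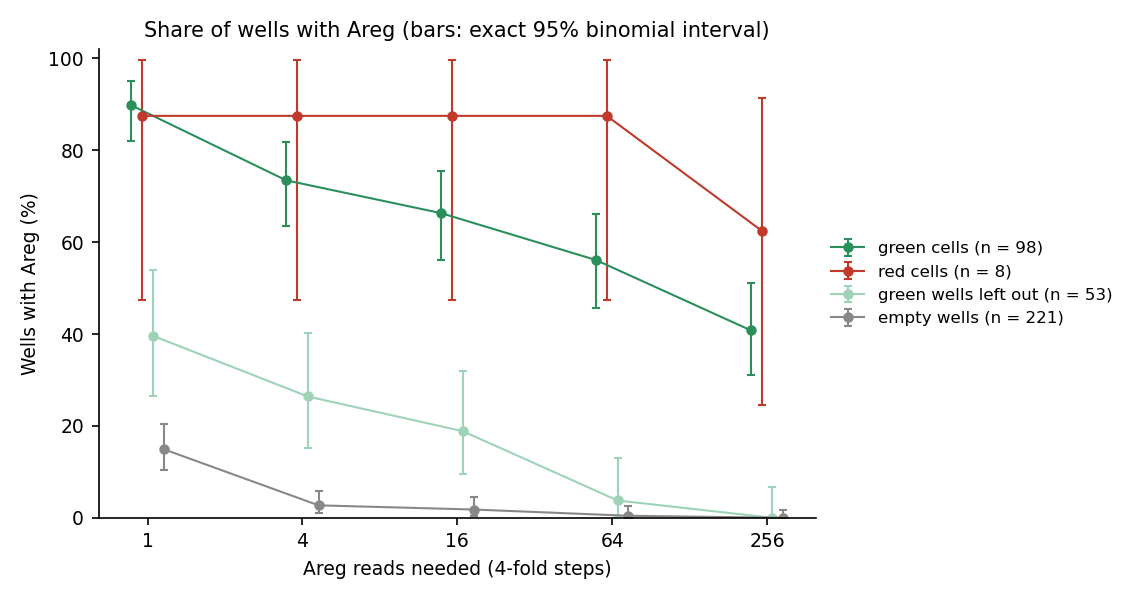
Share of wells with Areg in percent (vertical axis) at 5 detection limits in reads (horizontal axis, 4-fold steps), for green cells, red cells, green wells left out by the filter and empty wells of plate 1. Bars are exact 95% binomial intervals over wells. At 16 reads the share is 66.3% in green cells and 1.81% in empty wells, and at every limit the intervals of red and green cells overlap.

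Among the 98 green cells, Areg reads ran from 0 through a median of 119.5 to 4054. In all, 10 cells had 0 reads, 23 had 1 to 15, 10 had 16 to 63 and 55 had 64 or more. The 10 cells with most reads held 53.9% of the 41327 Areg reads of green cells (exact Poisson interval of the sum 40930 to 41727). Scaled to 1000000 gene reads per cell (CPM), the mean was 1660 ± 2199 (SD over 98 cells), with a median of 812, quartiles of 38.7 and 2577, and a highest value of 9448. The coefficient of variation over cells was 1.32. Of the 100 genes nearest to Areg in mean CPM (962 to 2815), 64 had a lower coefficient, with a median of 1.02, and 72 were detected in more green cells, with a median share of 82.1%. Areg was therefore more unevenly spread over cells than most genes of its mean level, although not more than all of them.

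**Figure D2:**
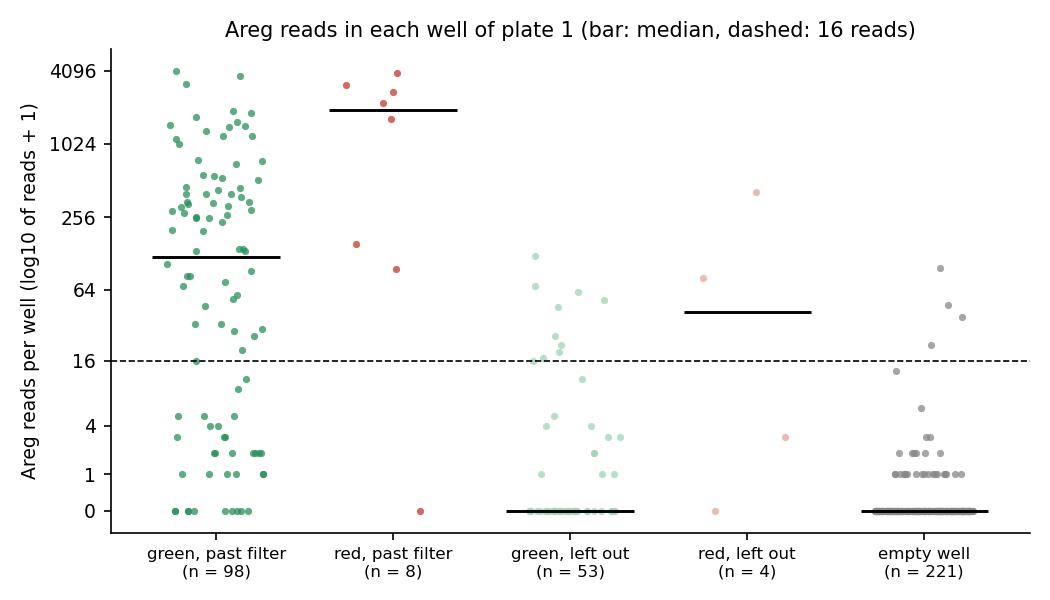
Areg reads in each well of plate 1 (vertical axis, log10 of reads + 1), by sort phenotype and filter. Each point is a well, bars are medians, and the dashed line is the detection limit of 16 reads. Green cells spread from 0 to 4054 reads around a median of 119.5, 7 of 8 red cells lie above the limit, and 4 of 221 empty wells do.

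Deeper cells more often passed the detection limit. Among the 33 green cells with the fewest genes (502 to 1194), 48.5% had Areg (30.8 to 66.5%), in the middle 33 (1220 to 2026 genes) 69.7%, and in the 32 with the most genes (2067 to 4480) 81.3% (63.6 to 92.8%). Median Areg in these groups was 93.7, 717 and 1411 CPM. Each cell was also drawn down to 1000 gene reads, by the expected share of cells that keep at least 1 Areg read, and this share was 40.3%, 47.6% and 59.1%. Over the 98 green cells of this single library, the Spearman correlation of Areg CPM with genes detected was 0.137, with gene reads 0.132, with spike-in reads 0.101 and with the mitochondrial share -0.0627. Depth is for that reason matched in the comparisons of red with green and of Areg-positive with Areg-negative cells below.

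Of the 8 red cells, 7 had Areg, 87.5% (47.3 to 99.7%), with 96 reads in red cell 12, 154 in cell 3, 1641 in cell 4, 2218 in cell 8, 2742 in cell 2, 3114 in cell 11 and 3906 in cell 5. Red cell 7 had 0 Areg reads, although 2189 genes were detected in it. In CPM the same cells stood at 1698, 394, 2879, 4338, 4441, 2967 and 2328, so that 5 of the 8 cells lay between 2328 and 4441. The mean was 2381 ± 1637 CPM (SD over 8 cells) and the median 2604, against 1660 ± 2199 and 812 in green cells. These ranges overlap: the highest green cell, at 9448 CPM, lies above all red cells, and both colours hold cells at 0.

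Red cells were also deeper, with a median of 2748.5 genes and 540662 gene reads against 1637 genes and 187690 reads in green cells. Each red cell was therefore set beside the 5 green cells nearest in genes detected (29 distinct cells, median 2718.5 genes), of which 72.5% had Areg at a mean of 1264 CPM. The share was 15 percentage points higher in red cells. Of 1387 genes compared in this way, 44.4% differed by 15 points or more, 70.4% lay above 0, and the median gene differed by 10 points. Areg's difference in share is thus close to that of the table as a whole, with 842 of 1387 genes at or below it. At a limit of 1 read the difference was -7.5 points.

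By level, the ratio of mean Areg in red to depth-matched green cells was 0.91 on the log2 scale, and 0.52 to all green cells. In 6 of the 8 red cells at least 4 of their 5 matched green cells had less Areg CPM. The exceptions were red cell 3, where 2 of 5 had less, and red cell 7, where 0 did. These comparisons share green cells. The matches of red cells 2 and 11 had the same lowest, median and highest values, 3.32, 231 and 475 CPM. Red cell 5, with 5129 genes, was deeper than every green cell (at most 4480 genes), so its matches were less deep. Counted per 1000 spike-in reads, which follow the RNA in a well and not its share of gene reads, mean Areg was 26.0 in red and 6.25 in green cells, a log2 ratio of 2.06. Drawn down to 1000 gene reads, 74.0% of red, 47.1% of matched and 48.9% of all green cells kept Areg, a difference of 26.9 points from the matched cells. With 8 red cells of 1 plate, leaving out 1 red cell in turn moved this difference between 19.3 and 39.4 points, the highest without red cell 7. A value per spike-in read holds both the gene reads of a cell and Areg's share of them. Median gene reads were 540662 in red and 187690 in green cells, at median spike-in reads of 59283.5 and 67405. By CPM, which is the share alone, the log2 ratio was 0.52. How much of 2.06 each part makes was not tested.

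The recorded red fluorescence also varied among cells sorted as green, from -2415 through a median of -12.5 to 1527 arbitrary units. All of these lay below the 2202 to 29626 units of the red cells. Areg and this fluorescence were compared after the data were seen. Among the 33 green cells with the lowest fluorescence (-2415 to -314 units), 51.5% had Areg (33.5 to 69.2%) at a median of 67.6 CPM. In the middle 33 cells the share was 69.7% at 475 CPM, and in the 32 highest (250 to 1527 units) 78.1% (60.0 to 90.7%) at 1447 CPM. Mean Areg did not rise in the same order, with 1393, 1169 and 2442 CPM in the lowest, middle and highest cells. Over the 98 green cells, which share a plate and a library, Spearman's rho was 0.318, Pearson's r on log2(CPM + 10) was 0.352, and rho was 0.30 without the 2 cells farthest from the median fluorescence.

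Depth did not move with fluorescence in the same direction. The highest-fluorescence cells had a median of 1237 genes, against 1752 and 1863 in the lowest and middle cells, and drawn down to 1000 reads their shares with Areg were 63.5%, 39.7% and 43.9%. Given genes detected and gene reads, the partial rho was 0.346, and 0.332 when plate row and column were held as well. Of 856 other genes, 0.234% had a partial rho with fluorescence at or above that of Areg, namely Cycs, cytochrome c, at 0.41 and Slc38a2, an amino acid transporter, at 0.35, and the median over all was 0.0074. Fluorescence itself varied with plate row (rho 0.222), as Areg did less (0.149). The intervals of the lowest and the highest cells overlap, and the part of plate position beyond the fit with row and column was not tested.

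**Figure D3:**
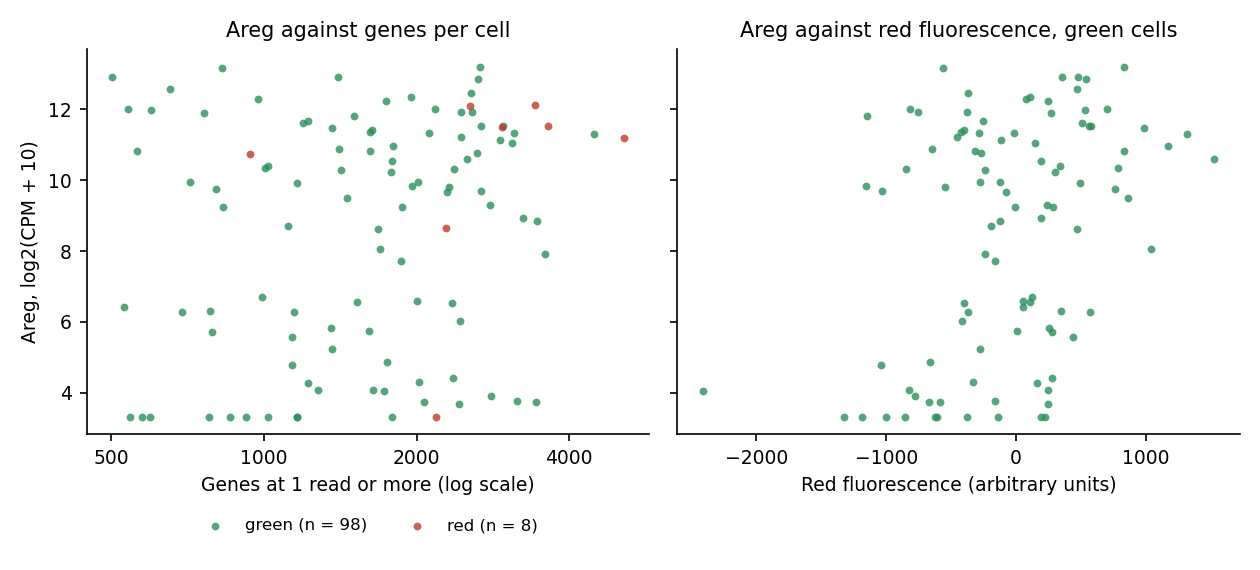
Areg as log2(CPM + 10) in each cell past the filter (vertical axes) against genes detected at 1 read or more (left, log scale, 98 green and 8 red cells) and against red fluorescence in arbitrary units (right, 98 green cells). Cells under 16 Areg reads occur up to 3437 genes on the left, and on the right the share of cells at the bottom is smaller at higher fluorescence, with 51.5% of the 33 lowest and 78.1% of the 32 highest cells having Areg.

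The genes whose level most resembled Areg's were then sought among the 98 green cells. The measure was the partial Spearman correlation of log2(CPM + 10) across cells, given genes detected and gene reads, over 856 genes at 16 reads or more in at least 25% of these cells. As a second measure, each of the 33 Areg-negative cells (under 16 reads) was matched to the 3 Areg-positive cells nearest in genes detected (47 distinct cells, median 1194 genes against 1164). In all, 15 genes (1.75%) reached a rho of 0.3 and 2 (0.234%) reached -0.3. The median rho was -0.0080, and the central 90% of genes lay between -0.20 and 0.23. By matched share, 4.79% of genes stood 20 points or more higher in Areg-positive cells and 3.5% 20 points or more lower, and the measures had the same sign in 636 of 856 genes.

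Kctd12, an auxiliary subunit of GABA-B receptors, had the highest rho, 0.46. Over cells with at least 1000 genes its rho was 0.31, below that of Ets2 at 0.54. Kctd12 was detected in 61.6% of matched Areg-positive cells and in 24.2% of Areg-negative cells. Its level ran from 0 through a median of 1224 to 29510 CPM over the 65 Areg-positive cells, and from 0 through 9.92 to 3457 CPM over the 33 Areg-negative cells. Both groups therefore hold cells without Kctd12, and they overlap up to the highest Areg-negative cell. Levels in CPM, here and below, cover all 65 and 33 cells and are not matched on depth. The Areg-positive cells had a median of 1794 genes and the Areg-negative cells of 1164. Ets2, an ETS family transcription factor, followed at 0.44 with 31.3% against 12.1%, and Dgat1, which makes triglyceride from diacylglycerol, at 0.44 with 60.6% against 21.2%. Dgat1 had a median of 289 CPM in Areg-positive cells and of 0 in Areg-negative cells, with highest values of 5703 and 1889 CPM.

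Tnfaip3, which encodes the ubiquitin-editing enzyme A20 that restrains NF-kB signalling, had a rho of 0.38 and was the most widely detected of these genes, in 92.9% of matched Areg-positive and 57.6% of Areg-negative cells. Its median level was 5736 CPM in Areg-positive and 608 CPM in Areg-negative cells, with highest values of 38880 and 21136 CPM. Hilpda, a lipid droplet protein induced by hypoxia, stood at 0.37 with 54.5% against 33.3%. The transcription factor genes Fosl2, an AP-1 subunit, and Egr1, an immediate early zinc finger factor, each stood at 0.37, with 57.6% against 21.2% and 38.4% against 9.09%. Fosl2 had a median of 382 CPM in Areg-positive and 35.4 CPM in Areg-negative cells, and Egr1 of 28.1 and 0 CPM.

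Samsn1, a lymphocyte adaptor, had a rho of 0.35 (49.5% against 21.2%). Mxd1, a partner of MAX that opposes Myc, stood at 0.32 (47.5% against 15.2%). Ramp3, which pairs with Calcrl to form receptors for adrenomedullin and related peptides, stood at 0.31 (33.3% against 6.06%), and Furin, a proprotein convertase, at 0.31 (40.4% against 21.2%). Calcrl itself was detected in 6 of 98 green cells, and by matched share in 1.01% against 9.09%. Under 8 other settings of the correlation that can change a single gene's value, the 12 genes with the highest rho kept a positive sign. These settings use the same or overlapping cells, and the genes were chosen by their rho, so a kept sign is not separate support. All but Furin stayed at 0.3 or above, and Furin was at 0.23 over cells with at least 1000 genes and at 0.26 per spike-in read.

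Txnip, which restrains glucose uptake and binds thioredoxin, had the lowest rho, -0.39, and was the only named gene past -0.3. It was detected in 16.2% of matched Areg-positive and in 54.5% of Areg-negative cells, with medians of 3.46 and 293 CPM and highest values of 2006 and 4856 CPM. The next genes did not reach the limit: Sqstm1, an autophagy adaptor, at -0.29 (14.1% against 36.4%), Psmd8, a proteasome subunit, at -0.29 (9.09% against 36.4%), and Esyt1, a tether between the endoplasmic reticulum and the plasma membrane, at -0.28 (26.3% against 51.5%). Gimap3, Chd3, Itm2b, S100a6, Klf6, Ccr2, Tapbp and Rnf7 lay between -0.28 and -0.25. Among these, Ccr2, a chemokine receptor, was detected in 22.2% against 54.5%, and Tapbp, which loads peptide onto MHC class I, in 30.3% against 54.5%.

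**Figure D4:**
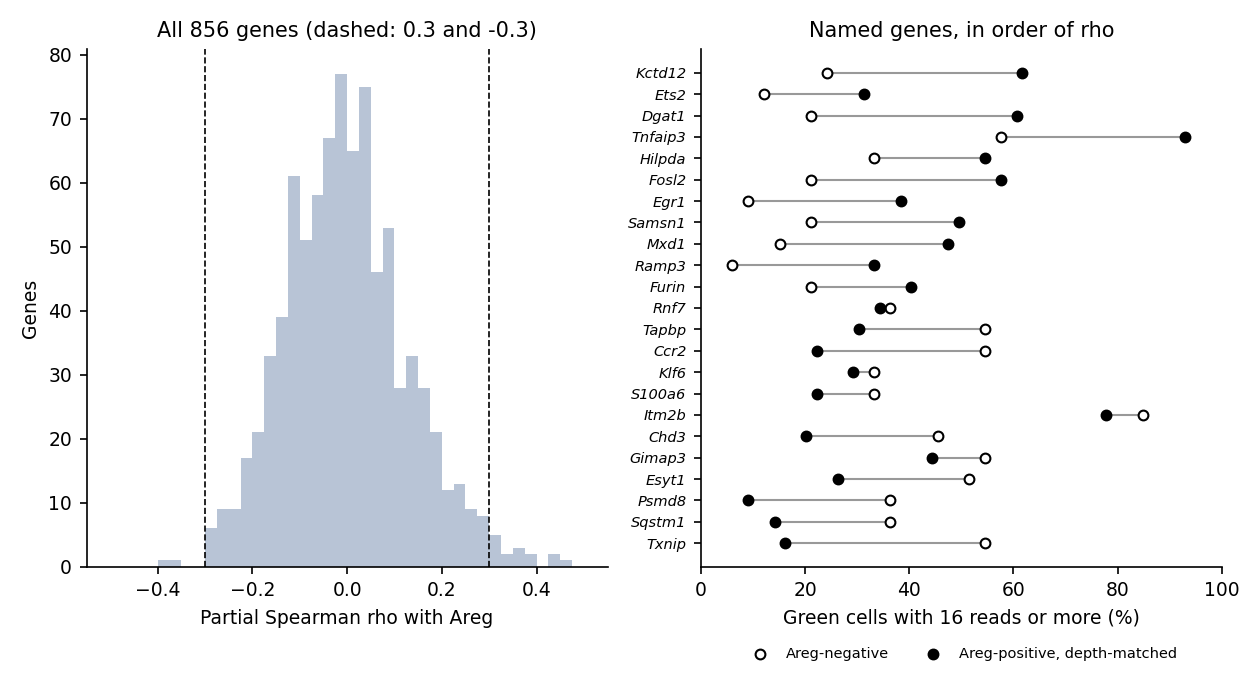
Left, partial Spearman rho with Areg of 856 genes over 98 green cells, as counts of genes per bin of 0.025, with dashed lines at 0.3 and -0.3, beyond which 15 and 2 genes lie. Right, percent of green cells with each gene described in the text in Areg-negative cells (open) and in Areg-positive cells matched on genes detected (filled), from Kctd12 (rho 0.46) at the top to Txnip (-0.39) at the bottom.

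Red cells, which this choice of genes did not use, were checked for the same genes after their values were seen. The 6 Areg-positive red cells with 2282 or more genes each held 9 to 12 of the 12 genes with the highest rho, and 8 to 11 of the 12 with the lowest, so detection in these cells did not set the groups apart. Red cell 12, where 938 genes were detected, held 6 and 3. Red cell 7, the cell without Areg, held 3 and 4, among 2189 genes. Red cell 3, of like depth with 2282 genes, held 9 and 10. Red cell 7 thus lacked genes of both groups, and it is a single cell.

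Of the EGF family ligands other than Areg, 3 of the 10 listed had a row, and each was detected in few green cells. Hbegf was detected in 1 of 98 green cells (1.02%), Tgfa in 2 (2.04%) and Btc in 0, which by the limit of 3 counts allows up to 3.06%, and 0 of 8 red cells had any of them. The other ligands, and the 4 receptors of the family, were not analysed here. The proteins that release the ligand had transcripts in a minority of cells. So did most genes: besides Areg, 856 of the 11352 gene rows were detected in at least 25% of green cells. Adam10 was detected in 16.3% of green cells (9.63 to 25.2%) and Adam17 in 10.2% (5.0 to 18%), with Adam8 in 5.10% and Adam9 in 2.04%. Frmd8, which binds iRhoms, was detected in 18.4% (11.3 to 27.5%) and Rhbdf2, which encodes iRhom2, in 1.02%. Timp3, an inhibitor of ADAM17, was detected in 0 of 98. Matched Areg-positive and Areg-negative cells differed by 10.1 points for Frmd8 (19.2% against 9.09%), 4.04 points for Adam10 (16.2% against 12.1%), 1.01 points for Adam17 (7.07% against 6.06%) and -5.05 points for Adam8 (1.01% against 6.06%).

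Receptors through which ILC2 are known to be stimulated showed no common direction. Of 7 that could be tested, 3 had a positive and 4 a negative rho, and 0 passed a limit, with a median of -0.0099. Il1rl1, the interleukin-33 receptor, had a rho of -0.0099 and was detected in 61.6% of matched Areg-positive and 57.6% of Areg-negative cells. Il2rg, the common gamma chain, stood at -0.17 (60.6% against 72.7%), and Icos, a costimulatory receptor, at -0.033 (37.4% against 27.3%). Il7r, the interleukin-7 receptor, stood at 0.083 (61.6% against 45.5%). Il17rb, the interleukin-25 receptor, stood at 0.071 (23.2% against 15.2%), and 25 of the 30 green cells with Il17rb had Areg.

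Among 7 tested genes of the NF-kB feedback list, which holds inhibitors, subunits and targets of NF-kB, all had a positive rho, against 47.4% of the 856 genes (406). The median was 0.21, and 1, Tnfaip3, passed 0.3, as 1.75% of all genes did. In 3 of the alternatives (green and red cells together, cells with at least 1000 genes, and spike-in scaling) 6 of the 7 were positive. Nfkbia, the inhibitor IkB-alpha, had a rho of 0.30, just under the limit, and was detected in all matched Areg-positive cells and in 78.8% of Areg-negative cells, with medians of 2747 and 1358 CPM. Nfkbiz, an atypical member of the same family, stood at 0.21 (68.7% against 54.5%). The rho values of the other tested members ran down to 0.019 for Nfkb1, a subunit of NF-kB itself, so the list was not uniform. Among members in too few cells to be tested, values went both ways, from 0.29 for Nfkbie to -0.25 for Tnip1. All lists were chosen with earlier results of these data known, so their contrasts with all genes are not independent.

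Of 11 tested AP-1 and EGR immediate early genes, 10 had a positive and 1 a negative rho, with a median of 0.14, and 2, Fosl2 and Egr1, passed 0.3, against 47.4% of all genes positive and 1.75% past 0.3. Members of the same family differed. Junb, detected in almost every cell, stood at 0.14 (94.9% against 87.9%), and Btg2, an antiproliferative gene induced early, at 0.21 (85.9% against 51.5%). Jund, an AP-1 subunit, stood at 0.29 (60.6% against 36.4%). Fos and Jun, the core AP-1 subunits, stood at 0.043 and 0.032. Klf6, a zinc finger factor, was the negative one of these 11 at -0.26. Members of the list in too few cells to be tested were negative wherever a value was computed. These were Klf2 at -0.19, Klf4 at -0.094, Batf at -0.034 and Myc at -0.028, so the positive sign holds for the tested members only. The list of stress and dissociation genes, to which Fos and Jun also belong, had a median of 0.025, with 5 positive, 3 negative and 0 past a limit, and its most abundant members Hsp90ab1, Dnaja1 and Hspa8, all chaperones, stood at -0.080, 0.017 and -0.21.

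Of 7 tested genes of the cyclic AMP and CREB response, 5 had a positive and 2 a negative rho (47.4% of all genes were positive), with a median of 0.17 and 0 past 0.3. Crem, which is itself induced by cyclic AMP, had the highest at 0.27 (34.3% against 15.2%). Nr4a1, an orphan nuclear receptor, stood at 0.23 (86.9% against 54.5%), with medians of 2713 CPM in Areg-positive and 649 CPM in Areg-negative cells. Rgs2, a regulator of G protein signalling, stood at 0.25 (69.7% against 39.4%), and Dusp1, a phosphatase of MAP kinases, at 0.17 (71.7% against 36.4%). Rgs1, a related regulator, went the other way at -0.14 (9.09% against 39.4%). By matched share 3 of the 7 genes were 20 points or more higher in Areg-positive cells and 1 was 20 points or more lower, against 4.79% and 3.5% of all genes.

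The full CRE seen upstream of Areg was looked for in the promoters of the genes that vary with it. Of the 12 genes with the highest rho, 9 had a promoter in the RefSeq table and 0 of these held TGACGTCA, while 5 held the shorter core TGACG, which 23.0% of 27025 genes hold in at least 1 promoter. Among the 12 with the lowest rho, 11 had a promoter in the table, of which 2 held the core and 1, Rnf7, the full element. Of the cyclic AMP genes described above, Nr4a1, Rgs2 and Dusp1 were searched, and Dusp1 held the full element. The stretches around these elements are shown to compare the flanks, on GRCm38.p6, with the element in capitals, at chr5:91139527-91139556 (forward) for Areg, chr17:26508597-26508626 (reverse) for Dusp1 and chr9:96478721-96478750 (reverse) for Rnf7.
Areg: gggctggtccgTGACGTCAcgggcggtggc
Dusp1: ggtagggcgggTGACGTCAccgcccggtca
Rnf7: ccagcccctcgTGACGTCActggcgcgcgc
The element starts 61, 143 and 64 bases before the transcript start of Areg, Dusp1 and Rnf7. Rnf7, with the element at almost the same distance as in Areg, had a negative rho with Areg, -0.25. Without the depth terms its rho was -0.17. It was detected in 34.3% of matched and 46.2% of all Areg-positive cells, against 36.4% of Areg-negative cells. Its median was 0 CPM in both groups. Whether the element bears on either gene was not tested.

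**Figure D5:**
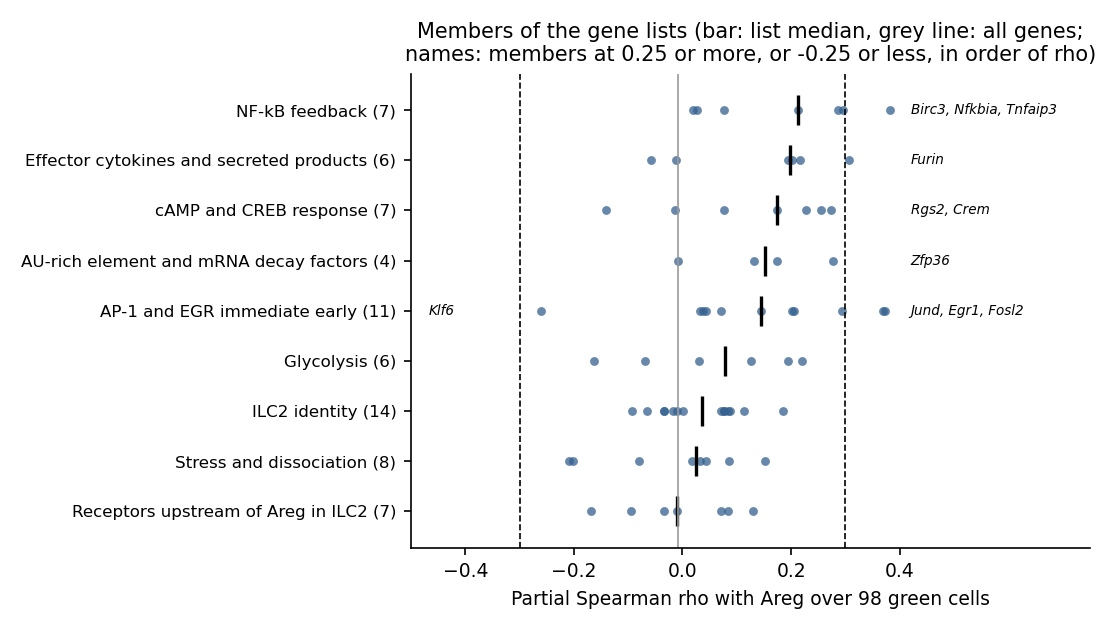
Partial Spearman rho with Areg over 98 green cells (horizontal axis) for each tested member of 9 gene lists (points), with list medians as black bars, the median of all 856 genes as a grey line and limits of 0.3 and -0.3 as dashed lines. Medians run from 0.21 for NF-kB feedback genes to -0.0099 for receptors upstream of Areg, and members named at the sides lie at 0.25 or more, or at -0.25 or less.

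Factors that bind AU-rich elements were looked at because of the pentamers in the Areg transcript. Of 4 tested, 3 had a positive and 1 a negative rho, with a median of 0.15. Zfp36, which encodes tristetraprolin and promotes decay of such messengers, had a rho of 0.28 and medians of 5643 CPM in Areg-positive and 1832 CPM in Areg-negative cells (84.8% against 69.7% by matched share). Its relatives Zfp36l1 and Zfp36l2 stood at 0.17 (74.7% against 81.8%) and 0.13 (45.5% in both). By matched share the list had a median difference of -3.03 points, so its measures differ in sign.

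Several other secreted products of ILC2 were found mostly in cells that also had Areg, as 66.3% of all green cells did. Il5, the eosinophil cytokine, was detected in 23 green cells, and 20 of them had Areg (87.0%, exact interval 66.4 to 97.2%). Its rho was 0.29, with 23.2% of matched Areg-positive and 9.09% of Areg-negative cells. All 8 green cells with Il13 had Areg (63.1 to 100%), as did 29 of 36 with Csf2, the gene of GM-CSF (80.6%), 22 of 25 with Cxcl2, a neutrophil chemokine (88.0%), and 27 of 37 with Calca, which encodes calcitonin and CGRP (73.0%). Csf2 and Calca had a rho of 0.22 and 0.19. Of 12 green cells with Lif, another gene of this list, 8 had Areg (66.7%), and its rho was 0.0399. The exact intervals of Il13, Csf2 and Calca include the 66.3% of all green cells. The shares of cells with Areg given here are not matched on depth, and the 32 deepest green cells had Areg in 81.3%. By matched share, Cxcl2 was detected in 23.2% of Areg-positive and 9.09% of Areg-negative cells, and Csf2 in 35.4% and 21.2%. Calca stood at 37.4% and 30.3%, Il13 at 8.08% and 0%, and Lif, the other way, at 9.09% and 12.1%.

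Arg1, an arginine-degrading enzyme abundant in ILC2, did not vary with Areg by rank (rho -0.012), although 32 of its 43 cells had Areg (74.4%) and matched shares were 44.4% against 33.3%. Ltb, lymphotoxin beta, stood at -0.058 with 28.3% against 39.4%. Klrg1, a surface receptor of mature ILC2, stood at 0.077, with Areg in 41 of its 56 cells (73.2%). In red cells, of which 7 of 8 had Areg, it was found in 7 of 7 with Il5, 6 of 6 with Csf2, 6 of 6 with Calca, 6 of 7 with Arg1 and 7 of 8 with Klrg1, and 0 had Il13. The list of effector cytokines and secreted products also holds the enzymes Arg1 and Furin. Of its 6 tested members 4 had a positive and 2 a negative rho, with a median of 0.20. Only 1, the convertase Furin, was past 0.3. Of all 856 genes, 47.4% were positive and 1.75% past 0.3.

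Counting Il5, Il13, Il4, Csf2 and Calca together, 36 green cells had none of them, and 19 of these had Areg. With 1 of them, 18 of 29 cells had Areg, with 2, 14 of 19, and with 3, 11 of 11. All 3 cells with 4 or 5 of them also had Areg. Cells with more products were deeper, with a median of 1067 genes at 0 products, 1635 at 1, 2374 at 2 and 2453 at 3, and the part of depth in this order was not tested. Areg thus occurred in cells with none of these 5 products as well as beside them.

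ILC2 identity genes showed no common direction. Of 14 tested, 8 had a positive and 6 a negative rho, with a median of 0.036 and 0 past a limit. Gata3, the lineage's leading transcription factor, stood at 0.19 (84.8% against 66.7%), Id2, a factor needed by all innate lymphoid cells, at -0.065 (79.8% against 78.8%), and Hes1, a target of Notch, at 0.0015 (48.5% against 36.4%). Of the Areg-positive cells 62 of 65, and of the Areg-negative cells 24 of 33, held 3 or more ILC2-like markers, but that list holds Areg itself, and Areg-positive cells had a median of 1794 genes against 1164. Both cells with 3 T cell-like markers were Areg-negative, and both with 3 markers of division were Areg-positive. Mitochondrial reads were 9.38% and 10.4% at the median and spike-in reads 66780 and 69539. With CPM computed without Rn45s and mitochondrial reads, a setting added after the data were seen, 16 genes reached 0.3, of which 14 were among the 15, and per spike-in read 24 did.

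Among glycolysis genes, 4 of 6 tested had a positive and 2 a negative rho, with a median of 0.078 and 0 past a limit. Ldha, lactate dehydrogenase, stood at 0.22 (65.7% against 51.5%), Pkm, pyruvate kinase, at -0.068 (41.4% against 39.4%) and Gpi1, which isomerises glucose phosphate, at 0.13 (31.3% against 21.2%). The glucocorticoid receptor gene Nr3c1 stood at 0.19 (36.4% against 24.2%), and 2 of 10 genes of the glucocorticoid list and 1 of 16 of the MAP kinase feedback list were detected in enough cells to be tested, Dusp1 in both.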

How the data were processed

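The authors deposited raw read counts, one value for each gene row and well. The deposited sort record gives the colour and the red fluorescence intensity of each sorted cell, in arbitrary units that can be negative. The submitters' processing notes name STAR, STARsolo, edgeR and mm10, and versions and settings are not given in the sources used here. The counts are reads and not molecular identifiers. Per the labels' protocols, libraries were CEL-seq2-based. From these counts, CPM over gene reads (spike-ins left out) was computed with Python 3.11.15, numpy 2.4.6, pandas 2.3.3 and scipy 1.17.1. Detection was set at 16 reads, the pseudocount at 10 CPM, the filter at 500 genes and 25% mitochondrial reads. Each red cell was matched to 5 green cells and each Areg-negative cell to 3 Areg-positive cells by log genes detected. Intervals are exact (Clopper-Pearson or Poisson, 95%). No doublet caller was run on singly sorted cells.

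Plate 1 is 1 sample, so there was no test and no comparison between samples, and plates 2 to 4 were not used for gene values. Named genes were the 12 with the highest and the 12 with the lowest partial rho whose matched difference in share had the same sign, leaving out ribosomal, mitochondrial and numbered genes. Of the 12 with the highest rho, 1 is counted but not reported here. Of the genes past 0.3 in size, this left out Srgn, by its share, Rps16, by its name, and Stk17b and Odc1, by the limit of 12. Every EGF ligand, receptor and shedding gene, the 3 most abundant members of each other list, members past 0.3, and Il5, Il13, Csf2, Calca, Arg1, Klrg1, Il17rb and Ltb could also be named. Further genes (Il7r, Crem, Rgs1, Nfkb1, Fos, Jun, Id2, Il4, Kit, Cycs and Slc38a2) were named after their values were seen. So were Tnip1, Nfkbie, Klf2, Klf4, Batf, Myc, Lif, Prf1, Il23r, Cst3 and Calcrl. Members and lists were chosen with earlier results of these data known. Promoters (RefSeq, GRCm38.p6) matched 8476 of 11352 gene rows, and sequences were otherwise read from GENCODE M21 on mm10. The matching and correlation steps were tested on simulated data. Alternatives varied the detection limit, filters, scaling, matching and correlation, and the closing section gives their effect.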

Additional observations from a re-analysis of the deposited data

Results flagged for a closer look

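Of the 53 green wells left out by the filter, 10 had 16 or more Areg reads, 18.9% (exact 95% interval 9.44 to 32.0%), against 1.81% of empty wells (0.495 to 4.57%). These wells entered no comparison above. Among the 4 red wells left out, 2 had Areg, red cell 6 with 81 reads among 432 genes and red cell 9 with 413 reads among 435 genes. Red cell 9 stood at 24359 CPM, above every cell that passed, on few gene reads.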

How the results depend on the processing

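The share of green cells with Areg was 66.3%, and it was 89.8% with detection at 1 read, 40.8% at 4 times 64 reads, 49.7% over all sorted wells and 48.9% after drawing down to 1000 reads. The mean of red cells, 2381 CPM, was 4294 CPM with cells of at least 300 genes, which adds red cells 1, 6 and 9. The log2 ratio of red to green cells, 0.52, was 2.06 per spike-in read. The depth-matched difference in share, 15 points, ranged from 8.57 to 28.6 points when each red cell was left out in turn, and the drawn-down difference from 19.3 to 39.4 points, both highest without red cell 7. The former was 4.17 points with the 3 nearest green cells, 10 when matched on gene reads, and -7.5 with detection at 1 read, a change of sign.

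The number of genes at a rho of 0.3 or more, 15, was 24 by partial Pearson correlation, 7 among genes in at least 50% of cells, 42 over cells with at least 1000 genes and 24 per spike-in read. The number at -0.3 or less, 2, became 7, 1 and 14 under the first 3 of these and 4 without the cells with dividing markers. By matched share, 41 genes were 20 points higher and 30 lower. These became 77 higher with 1 nearest cell, 89 higher and 110 lower with Areg-negative cells at 0 reads, 214 higher and 1 lower without matching, and 19 lower with Areg at 64 reads. The causes were not tested, apart from fewer genes or cells entering. The 24 genes with the highest and lowest rho kept their sign in 8 alternatives. This is not separate support, since the genes were chosen by their rho in the same or overlapping cells. Of the 12 lowest, 1, Txnip, was past -0.3 in all 8. Pseudocounts of 1 and 100 and the limits on the share of cells cannot change a gene's own rank correlation and are not counted. Leaving out plates was not run, since names were usable on 1 plate. No paired analysis was possible because 1 sample was used. With 8 red cells, whose share has an exact interval of 47.3 to 99.7%, the share in red cells is known only within these bounds.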
